A study of Mus musculus with 9 samples.

Results

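Messenger RNA of splicing factor genes was quantified by RNA sequencing of whole liver. The liver was labelled as deficient in O-GlcNAc transferase (OGT) or came from control littermates. The genes were chosen by symbol alone: the SR protein genes (Srsf followed by a number), the heterogeneous nuclear ribonucleoprotein genes (Hnrnp), the SF3A and SF3B subunit genes, the Snrp genes, Clk1 to Clk4, the Luc7l genes, Tra2a and Tra2b, the U2af genes, the Prpf genes and Rbm39. The rule found 78 genes among the 24421 symbols of the count tables. No measured value entered the rule, although it was set with earlier results of these data known. Of these 78, 75 held enough counts to be tested. The control group (WT) held 5 libraries and the OGT-deficient group 4, all from mice on the C57BL/6J background that were 5 weeks old and had gone 6 h without food. Mice of both sexes were used according to the series design, and the labels do not give the sex of each. How OGT was deleted, in which liver cells, and with which promoter is not given in the sources used here. Because whole tissue was sequenced, fewer cells of a type and less RNA per cell cannot be told apart.

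Introns are removed from precursor RNA by the spliceosome, which is built from small nuclear ribonucleoproteins (snRNPs). The U1 snRNP binds the start of the intron, the U2 snRNP with SF3A and SF3B binds the branch point after U2AF has marked the end of the intron, and the U4, U5 and U6 snRNPs join before catalysis. SR proteins and hnRNPs bind the transcript and promote or hold back the use of particular exons, and the CLK kinases phosphorylate SR proteins. OGT attaches N-acetylglucosamine to nuclear and cytoplasmic proteins, many RNA-binding proteins among them. Many splicing factor genes also yield transcripts with retained introns or early stop codons, which limit the amount of productive mRNA.

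Each library held 32337861 to 54130901 gene counts. Levels are given in CPM, counts scaled to a common library total, and a count of 3 equals 0.0554 to 0.0928 CPM by library totals alone. Ogt itself stood at 51.1 to 73.1 CPM in WT and 14.3 to 20.6 CPM in OGT-deficient libraries (log2 fold change -1.86, SE 0.14), in the direction of the labels. The groups differed in composition. Splicing factor genes held 0.418 to 0.4505% of gene counts in the WT libraries against 0.515 to 0.628% in those of OGT-deficient liver (two-sided exact permutation p = 0.0159, which 9 libraries cannot go below, or 0.0265 after adjustment over 5 library measures, or 0.0198 in the other form of the test described with the gene pairs). The trimmed mean of M-values (TMM), which sets the library scale from the bulk of genes, gave factors of 0.880 to 0.915 for WT libraries and 1.09 to 1.22 for OGT-deficient ones. On that scale the 78 genes summed to 4754 to 5042 CPM in WT and 4725 to 5164 CPM in OGT-deficient liver, and the groups overlapped. The CPM values of Ogt above and all CPM values below are TMM-scaled. Of 10 hepatocyte markers 9 fell in the same libraries, and their summed level went from 109480 to 133130 CPM in WT to 50339 to 64876 CPM in OGT-deficient liver. Markers of bile duct cells rose (7 of 8, 31.4 to 60.2 against 148 to 258 CPM), as did those of stellate cells (7 of 8, 149 to 342 against 733 to 1026 CPM), recruited macrophages (7 of 8, 34.98 to 46.3 against 119 to 169 CPM) and the cell cycle (11 of 12, 56.9 to 91.9 against 176 to 236 CPM). The summed levels of Kupffer cell, endothelial, T and NK, B cell and neutrophil markers overlapped between the groups. No marker of these lists was at 0 in all libraries. The part of cell composition in the changes below was not tested.

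Splicing factor genes changed in both directions and by small amounts. Of the 75 tested, 17 rose and 19 fell at an adjusted p under 0.05 in edgeR's quasi-likelihood test, which makes 48.0% called against 61.1% of all 14104 tested genes. The rises made up 22.7% of members against 31.6% of all genes, and the falls 25.3% against 29.4%. Their log2 fold changes ran from -1.07 to 0.97 with a median of -0.04, where the median of all genes was 0.02. For 61 of 75 members (81.3%) the log2 fold change was smaller than 0.5 in size, against 53.6% of all tested genes. Prpf40b was the only member called with at least a 2-fold change, and 21.6% of all tested genes met that mark. The 4 OGT-deficient values lay wholly above the 5 WT values for 14 members and wholly below for 13, where 26.2% and 25% of all tested genes did so (51.3% in all).

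The split between rises and falls depended on the scaling. With upper-quartile factors 26 members were higher and 10 lower, and with library totals alone, an alternative added after the TMM factors were seen, 42 were higher and 4 lower. The median of all genes moved to 0.14 and 0.36 under those scalings, and the median of the splicing factors to 0.078 and 0.30. Relative to the median of all genes the splicing factors stood at -0.07, -0.07 and -0.06 under TMM, upper-quartile factors and library totals. With DESeq2 size factors the counts stayed at 17 and 19. The calls of 18 members, 14 rises and 4 falls, were kept under all 15 alternatives tried: Hnrnpa3, Hnrnpab, Hnrnph1, Prpf19, Prpf31, Sf3a1, Sf3a3, Sf3b4, Snrpa1, Snrpc, Snrpd1, Snrpd3, Snrpe and Tra2a rose, and Luc7l2, Prpf40b, Rbm39 and Sf3b5 fell. Both scalings that differ from TMM move values upward, so they bear harder on falls than on rises.

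**Figure D1:**
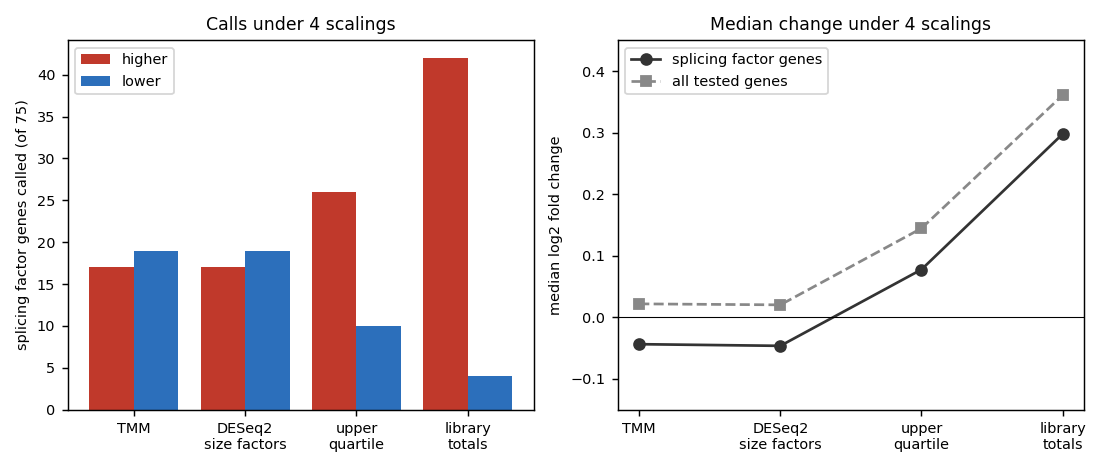
Number of splicing factor genes called higher or lower out of 75 tested (left, bars) and the median log2 fold change of these genes and of all tested genes (right, points) under 4 scalings. Calls go from 17 higher and 19 lower with TMM to 42 higher and 4 lower with library totals, and both medians move upward together.

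**Figure D2:**
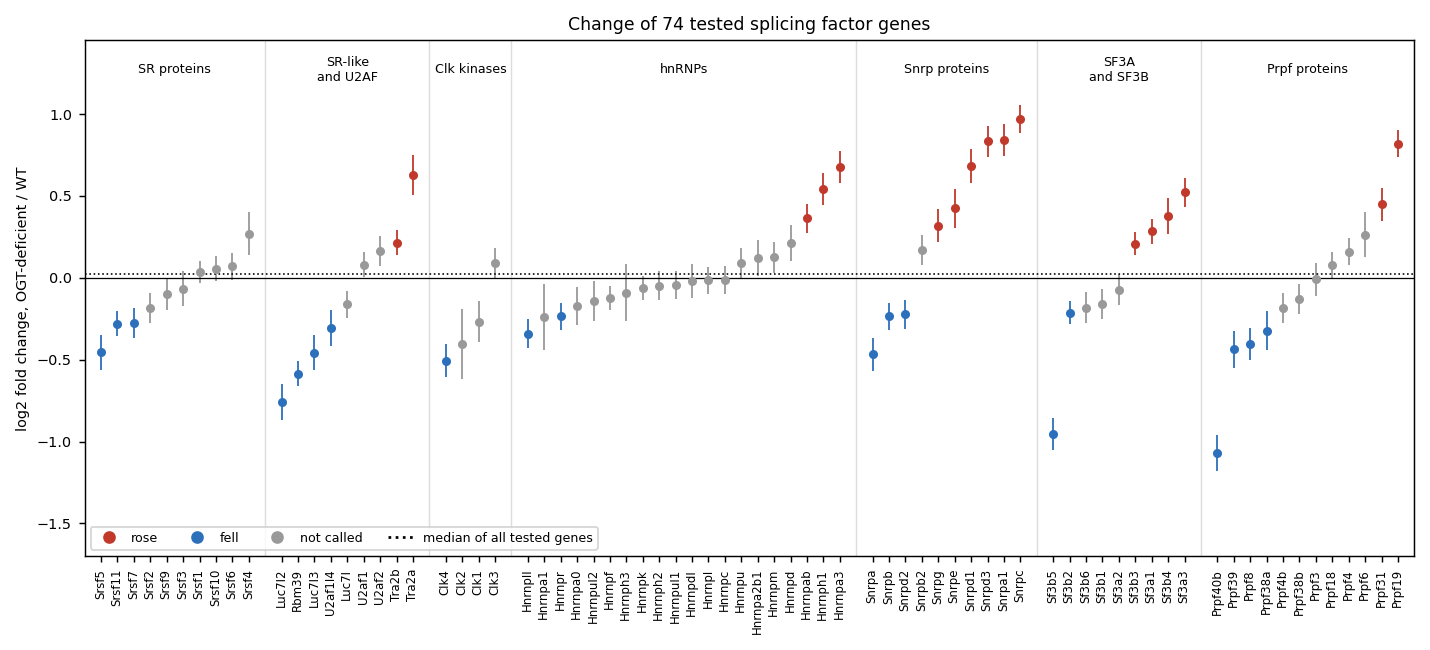
Log2 fold change between OGT-deficient and WT liver for 74 of the 75 tested splicing factor genes by family, with bars for the standard error and the median of all tested genes as a dotted line. Snrpc stands highest at 0.97 and Prpf40b lowest at -1.07, no SR protein gene is called higher with TMM, and most hnRNP genes lie close to 0 on that scale.

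The Snrp genes, which encode the Sm ring shared by the spliceosomal snRNPs and proteins particular to U1 and U2, held the most rises. Of 12 members 10 were tested, 6 rose (60%) and 3 fell (30%), against 31.6% and 29.4% of all tested genes. The median log2 fold change was 0.37. Among the rises, those of Snrpc, Snrpd1, Snrpe and Snrpg are uncertain because of sequence shared with other genes. Upper-quartile factors gave 7 rises and 1 fall, and library totals 7 and 0. The summed level of the 12 members was 292 to 356 CPM in WT and 369 to 424 CPM in OGT-deficient liver, so that the groups did not overlap.

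Snrpc encodes a small U1 protein that helps U1 bind the start of the intron (chromosome 17, 27838150 to 27851968, plus strand, GRCm38). It measured 19.99, 25.6, 21.7, 21.02 and 20.7 CPM across WT 1 to 5 against 41.9, 39.9, 46.1 and 42.9 CPM across OGT-deficient 1 to 4. The lowest OGT-deficient library stood above the highest WT library (log2 fold change 0.97, SE 0.087, adjusted p = 1.39e-06). Snrpa1 encodes a protein particular to U2 (chromosome 7, 66059003 to 66074587, plus strand). It measured 14.4, 16.4, 19.1, 17.2 and 16.9 CPM across WT 1 to 5 against 32.8, 27.1, 32.4 and 28.1 CPM across OGT-deficient 1 to 4, again without overlap (log2 fold change 0.84, SE 0.097, adjusted p = 1.07e-05). Snrpd3, a gene of the Sm ring (chromosome 10, 75517551 to 75537381, plus strand), measured 56.9, 70.8, 68.5, 53.2 and 61.4 CPM across WT 1 to 5 against 117, 104, 108 and 114 CPM across OGT-deficient 1 to 4. Every OGT-deficient library exceeded every WT library (log2 fold change 0.83, SE 0.094, adjusted p = 8.85e-06). Snrpd1, another Sm ring gene, measured 8.57, 9.77, 9.43, 8.25 and 7.75 CPM across WT 1 to 5 against 15.8, 12.7, 14.5 and 13.2 CPM across OGT-deficient 1 to 4. Its groups did not overlap (log2 fold change 0.68, SE 0.1, adjusted p = 0.000114). Snrpe, also of the ring, stood at 26.2 ± 4.05 CPM in WT (SD, n = 5) against 35.2 ± 3.88 CPM in OGT-deficient liver (SD, n = 4) (log2 fold change 0.42). WT 2 and WT 3 were the highest of the WT libraries for Snrpe, and the groups overlapped only narrowly between the highest of them and OGT-deficient 2.

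Snrpa encodes the other small U1 protein of this family, and it fell. Its values were 19.0, 21.1, 24.7, 22.4 and 20.3 CPM across WT 1 to 5 against 14.3, 15.3, 14.5 and 18.1 CPM across OGT-deficient 1 to 4. All OGT-deficient libraries lay below all WT libraries (log2 fold change -0.47, SE 0.1, adjusted p = 0.00159), with a log2 fold change of -0.13 and adjusted p = 0.247 under library totals alone. Snrpb2, which encodes the U2 partner of the Snrpa1 protein, stood at 14.6 ± 1.30 CPM in WT (SD, n = 5) against 16.4 ± 1.10 CPM in OGT-deficient liver (SD, n = 4) and was not called (adjusted p = 0.124), while upper-quartile factors (0.29, adjusted p = 0.0159) and library totals (0.52) called it higher. Of these genes Snrpc, Snrpa, Snrpd1 and Snrpe have copies elsewhere: 19.6%, 25.9%, 13.8% and 20.8% of the 50-base stretches of their longest coding transcript also occur in the transcript of another gene, so their values are uncertain. Alignments that were not unique entered no gene count. They were more frequent in WT, at 0.314 to 1.02 alignments per gene count against 0.205 to 0.224 in OGT-deficient libraries. These are counts of alignments and not of reads, and their part in the values above was not tested. For Snrpa1, Snrpb2 and Snrpd3 these shares were 0%, 1.09% and 0%.

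SF3A and SF3B are the complexes of the U2 snRNP that hold the branch point, and their subunits went both ways. Of 9 members 4 rose (44.4%) and 2 fell (22.2%), where 31.6% and 29.4% of all tested genes did so. The counts were 4 and 1 with upper-quartile factors and 5 and 1 with library totals. Sf3a3 encodes a subunit of SF3A (chromosome 4, 124714776 to 124732460, plus strand) and measured 16.5, 13.99, 16.5, 16.3 and 16.2 CPM across WT 1 to 5 against 26.1, 21.5, 21.9 and 21.7 CPM across OGT-deficient 1 to 4. OGT-deficient 1 was the highest and WT 2 the lowest of their groups, and the groups did not overlap (log2 fold change 0.52, SE 0.089, adjusted p = 0.000264). Sf3a1, the scaffold subunit of SF3A, went from 30.5 ± 0.530 to 37.1 ± 3.02 CPM (log2 fold change 0.28) and Sf3b4 from 19.6 ± 2.20 to 25.5 ± 3.36 CPM (log2 fold change 0.38). For Sf3b4 49.3% of stretches occur in another gene, and the value is uncertain.

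Sf3b5, a small subunit of SF3B (chromosome 10, 13005343 to 13009183, plus strand), went the opposite way. It measured 26.0, 27.7, 23.5, 25.1 and 26.3 CPM across WT 1 to 5 against 11.5, 13.9, 12.4 and 15.4 CPM across OGT-deficient 1 to 4. The highest OGT-deficient value lay under the lowest WT value (log2 fold change -0.95, SE 0.098, adjusted p = 4.34e-06), and the fall was called with library totals alone as well. Sf3b2 fell by 0.21 on the log2 scale (adjusted p = 0.0178), with -0.09 and adjusted p = 0.247 under upper-quartile factors and 0.12 and adjusted p = 0.137 under library totals. Sf3b1, which encodes the subunit that clamps the branch point, stood at 122 ± 14.1 CPM in WT (SD, n = 5) against 109 ± 5.33 CPM in OGT-deficient liver (SD, n = 4) and was not called (adjusted p = 0.153). The summed level of the 9 genes was 397 to 428 CPM in WT and 383 to 411 CPM in OGT-deficient liver, and the groups overlapped.

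The Prpf genes encode proteins that act from the first step of assembly to catalysis. Of 13 members 2 rose (15.4%) and 4 fell (30.8%), where 31.6% and 29.4% of all tested genes did so. The median log2 fold change was -0.01. The counts were 5 and 3 with upper-quartile factors and 7 and 1 with library totals. Prpf19 encodes the ubiquitin ligase at the centre of the complex that activates the spliceosome (chromosome 19, 10895231 to 10909559, plus strand). It measured 120.3, 119, 112, 113 and 107 CPM across WT 1 to 5 against 212, 173, 215 and 206 CPM across OGT-deficient 1 to 4, so that the lowest OGT-deficient library was above the highest WT library (log2 fold change 0.82, SE 0.083, adjusted p = 3.69e-06). Prpf31, a protein that joins the U4 and U6 particle to U5, rose by 0.45 on the log2 scale (adjusted p = 0.00199). OGT-deficient 2 was its highest library, at 21.2 CPM against 16.2 to 16.7 CPM in the other OGT-deficient libraries.

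Prpf40b is a mouse relative of the yeast U1 protein Prp40 (chromosome 15, 99295087 to 99317018, plus strand). It measured 15.7, 17.3, 18.3, 17.8 and 17.3 CPM across WT 1 to 5 against 8.81, 6.65, 9.51 and 7.86 CPM across OGT-deficient 1 to 4. The groups did not overlap (log2 fold change -1.07, SE 0.11, adjusted p = 4.45e-06). Prpf8, the large U5 protein at the catalytic centre, fell by 0.41 on the log2 scale (adjusted p = 0.00318) and Prpf39, a U1-associated protein, fell by 0.44 (adjusted p = 0.0049). With library totals alone Prpf8 and Prpf39 stood at -0.07 and -0.09 and were not called (adjusted p = 0.522 and 0.558).

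Genes of the SR-like factors and of U2AF held 2 rises (22.2%) and 4 falls (44.4%) among 9 members. Of all tested genes 31.6% rose and 29.4% fell. The counts were 4 and 3 with upper-quartile factors and 4 and 2 with library totals. The summed level of the 9 members was 457 to 496 CPM in WT and 389 to 436 CPM in OGT-deficient liver. The LUC7-like proteins associate with U1 and influence which intron starts are used. Luc7l2 (chromosome 6, 38551334 to 38609470, plus strand) measured 92.0, 90.3, 95.1, 107 and 106 CPM across WT 1 to 5 against 67.4, 46.6, 63.6 and 54.1 CPM across OGT-deficient 1 to 4. OGT-deficient 2 was lowest and all OGT-deficient libraries lay under all WT libraries (log2 fold change -0.76, SE 0.11, adjusted p = 7.43e-05). A share of 10.1% of its stretches occurs in other genes, just over the limit of 10% used here, so the value is given as uncertain.

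Luc7l3 measured 37.5, 35.2, 43.6, 43.0 and 44.1 CPM across WT 1 to 5 against 35.2, 25.6, 30.0 and 27.6 CPM across OGT-deficient 1 to 4. OGT-deficient 1 and WT 2 differed by less than 0.01 CPM, and no OGT-deficient library lay above any WT library (log2 fold change -0.46, SE 0.11, adjusted p = 0.00242), and with library totals alone it stood at -0.11 and was not called (adjusted p = 0.452). Luc7l, the founding member of the family, measured 30.0, 31.6, 33.6, 35.3 and 34.9 CPM across WT 1 to 5 against 32.4, 26.6, 29.0 and 30.3 CPM across OGT-deficient 1 to 4. The groups overlapped, and it was not called (log2 fold change -0.16, adjusted p = 0.109), although it passed without OGT-deficient 1 (-0.22, adjusted p = 0.0489) and stood at 0.18 with library totals alone.

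Rbm39 encodes an RNA-binding protein related to the large U2AF subunit (chromosome 2, 156147239 to 156180238, minus strand). It measured 91.6, 95.3, 100.4, 103 and 102 CPM across WT 1 to 5 against 71.7, 62.8, 62.0 and 65.7 CPM across OGT-deficient 1 to 4. No OGT-deficient library reached the lowest WT library (log2 fold change -0.59, SE 0.075, adjusted p = 2.72e-05), and the fall was called under every alternative tried. The large and small U2AF subunit genes U2af2 and U2af1 stood at 123 ± 9.62 CPM in WT (SD, n = 5) against 138 ± 15.2 CPM in OGT-deficient liver (SD, n = 4) and at 28.8 ± 1.37 CPM in WT (SD, n = 5) against 30.4 ± 2.22 CPM in OGT-deficient liver (SD, n = 4), and neither was called with TMM (adjusted p = 0.141 and 0.386). Both were called higher with upper-quartile factors (0.28 and 0.20, adjusted p = 0.0181 and 0.0355) and with library totals (0.50 and 0.42). They share 29.9% and 59.4% of their stretches with other genes, so both values are uncertain.

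TRA2 proteins activate exons through purine-rich elements. Tra2a (chromosome 6, 49243924 to 49264033, minus strand) measured 8.78, 12.9, 13.0, 12.6 and 12.5 CPM across WT 1 to 5 against 20.7, 16.1, 17.6 and 19.3 CPM across OGT-deficient 1 to 4. WT 1 stood below the other WT libraries, and the groups did not overlap without or with it (log2 fold change 0.63, SE 0.12, adjusted p = 0.000773). Tra2b measured 28.1, 28.1, 31.7, 30.8 and 32.1 CPM across WT 1 to 5 against 36.7, 36.0, 34.6 and 32.7 CPM across OGT-deficient 1 to 4. Its groups did not overlap either, by a narrow gap between WT 5 and OGT-deficient 4, and its log2 fold change was 0.22 (adjusted p = 0.0252), a call that leaving out any of 4 libraries ended (adjusted p = 0.0552 to 0.0832 without WT 1, WT 2, OGT-deficient 1 or OGT-deficient 2). Of its stretches 18.3% occur in other genes.

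**Figure D3:**
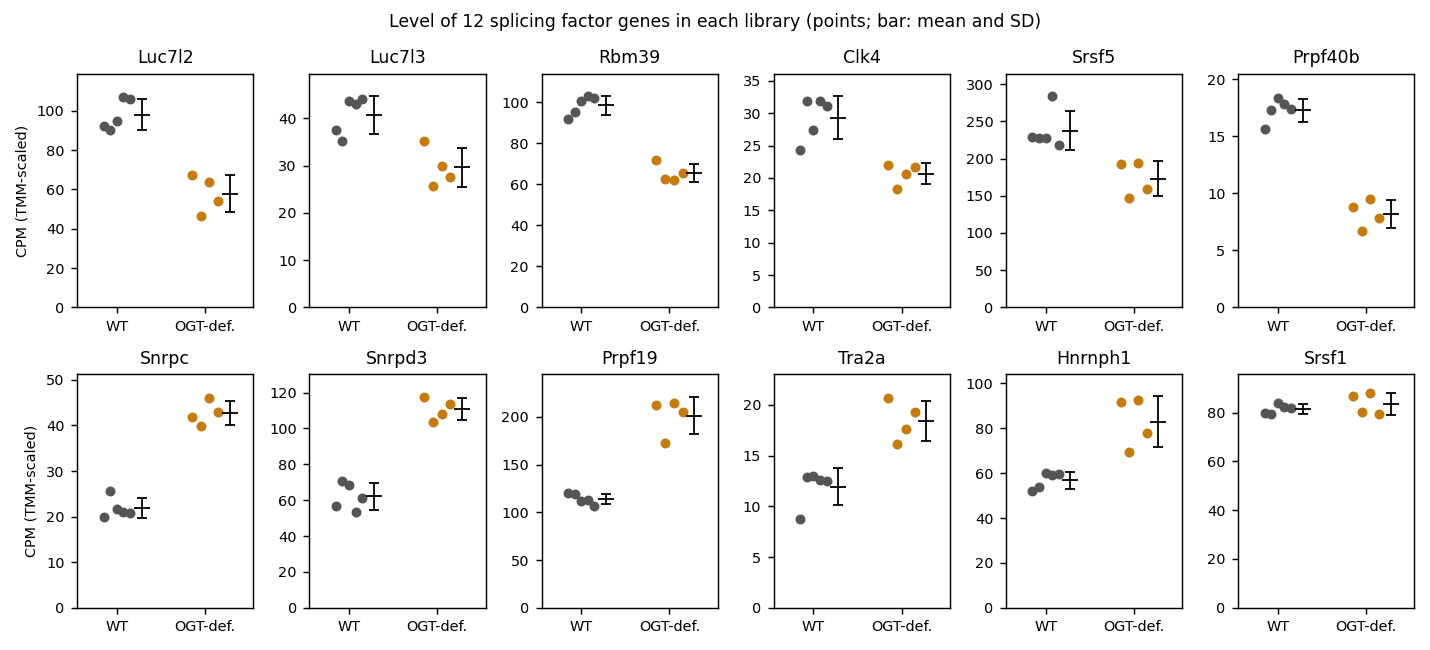
Level in CPM of 12 splicing factor genes in each library, with the mean and SD of each group at the right of the points. Luc7l2, Rbm39 and Prpf40b lie lower and Snrpc, Snrpd3 and Prpf19 higher in all 4 OGT-deficient libraries than in any WT library, while Srsf1 sits between 79.2 and 88.1 CPM in all 9.

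Of 11 SR protein genes 10 were tested, and with TMM 0 rose and 3 fell (30%, median log2 fold change -0.08). Of all tested genes 31.6% rose and 29.4% fell. An unadjusted p under 0.05 also gave 0 rises, and DESeq2 called 0, but other settings did call rises. Upper-quartile factors gave 1 rise and 1 fall, and library totals 4 rises and 0 falls. Srsf4 was the gene gained with upper-quartile factors (0.40, adjusted p = 0.0202), and it was also called higher without WT 4 (0.37, adjusted p = 0.018) and without OGT-deficient 2 (0.34, adjusted p = 0.0431). Antisense genes overlap 43.0% of its exonic sequence, so its value is uncertain. Srsf1, Srsf6 and Srsf10 were called higher, beside Srsf4, with library totals alone. Of the stretches of Srsf10 10.04% occur in other genes, so its value is uncertain. Srsf5, the most abundant of them (chromosome 12, 80945504 to 80950507, plus strand), measured 229, 228, 228, 284 and 218 CPM across WT 1 to 5 against 192, 147, 194 and 159 CPM across OGT-deficient 1 to 4. WT 4 was the highest library, and all OGT-deficient libraries lay below all WT libraries (log2 fold change -0.46, SE 0.11, adjusted p = 0.00301). Of its stretches 27.9% occur in another gene, and the value is uncertain. Srsf11 fell by 0.28 (adjusted p = 0.00659) and Srsf7 fell by 0.28 on the log2 scale (adjusted p = 0.019). With upper-quartile factors these 2 genes stood at -0.16 and -0.15 (adjusted p = 0.0872 and 0.183), and with library totals at 0.060 and 0.067. Under library totals Srsf5 stood at -0.11 (adjusted p = 0.452).

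The canonical SR protein genes Srsf1 and Srsf3 were not called with TMM. Srsf1 measured 79.8, 79.2, 83.9, 82.5 and 81.8 CPM across WT 1 to 5 against 86.7, 80.2, 88.1 and 79.3 CPM across OGT-deficient 1 to 4, with the OGT-deficient range almost covering the WT range (log2 fold change 0.04, adjusted p = 0.65). With library totals alone it stood at 0.38 (adjusted p = 0.0012). Srsf3 stood at 53.6 ± 6.82 CPM in WT (SD, n = 5) against 51.1 ± 5.51 CPM in OGT-deficient liver (SD, n = 4) (adjusted p = 0.598), and 31.5% of its stretches occur in other genes. The sum over all SR protein genes was 689 to 798 CPM in WT and 604 to 689 CPM in OGT-deficient liver, with a narrow overlap.

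Among the CLK kinases, which phosphorylate the SR proteins, 1 of 4 was called (25%, against 61.1% of all tested genes). Clk4 (chromosome 11, 51261730 to 51281766, plus strand) measured 24.4, 31.9, 27.4, 31.8 and 31.2 CPM across WT 1 to 5 against 22.0, 18.3, 20.6 and 21.6 CPM across OGT-deficient 1 to 4. The highest OGT-deficient library lay below the lowest WT library (log2 fold change -0.51, SE 0.099, adjusted p = 0.000744), and with library totals alone Clk4 stood at -0.16 (adjusted p = 0.189). Clk1, its closest relative, measured 36.7, 49.9, 49.0, 56.6 and 55.5 CPM across WT 1 to 5 against 46.5, 38.4, 35.4 and 44.1 CPM across OGT-deficient 1 to 4. The groups overlapped, with WT 1 below 3 of the 4 OGT-deficient libraries (log2 fold change -0.27, adjusted p = 0.0805). Without WT 1 Clk1 was called lower (-0.36, adjusted p = 0.00868), as it was without OGT-deficient 1 (-0.35, adjusted p = 0.0442), and with library totals it stood at 0.074.

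Clk2 was the least expressed of the 4 kinases in CPM, with 2.54, 2.37, 3.09, 3.99 and 2.06 CPM across WT 1 to 5 against 2.17, 1.66, 2.17 and 2.42 CPM across OGT-deficient 1 to 4. The groups overlapped, and WT 4 was the highest library (log2 fold change -0.41, adjusted p = 0.117). With the replicate number as a block in the fit Clk2 was called lower (-0.49, adjusted p = 0.0495). Clk3 measured 34.7, 40.7, 46.2, 40.3 and 38.0 CPM across WT 1 to 5 against 38.6, 39.6, 46.1 and 46.0 CPM across OGT-deficient 1 to 4. Its groups covered almost the same range (log2 fold change 0.09, adjusted p = 0.429), and it was called higher with library totals alone (0.43, adjusted p = 0.00162). Antisense genes overlap 15.2% of its exonic sequence, so the value is uncertain.

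Of 20 hnRNP genes 3 rose (15%), 2 fell (10%) and 15 were not called with TMM. Of all tested genes 31.6% rose and 29.4% fell. The median log2 fold change of the hnRNP genes was -0.03. Upper-quartile factors gave 5 rises and 0 falls, adding Hnrnpd and Hnrnpm. For Hnrnpm a gene on the same strand covers 14.7% of the exonic bases, so its value is uncertain. Library totals alone gave 14 rises and 0 falls, with a median of 0.31, so that the share of hnRNP genes called depended on the scaling. Hnrnpa3, a relative of the splicing repressor hnRNP A1 (chromosome 2, 75659261 to 75669407, plus strand), measured 47.8, 41.7, 46.4, 57.1 and 52.7 CPM across WT 1 to 5 against 81.0, 80.1, 69.0 and 83.5 CPM across OGT-deficient 1 to 4. Every OGT-deficient library exceeded every WT library (log2 fold change 0.68, SE 0.098, adjusted p = 7.43e-05), and 28.2% of its stretches occur in other genes, so the value is uncertain. Hnrnph1, whose protein binds runs of guanine (chromosome 11, 50376990 to 50386528, plus strand), measured 51.9, 53.7, 60.1, 59.2 and 59.5 CPM across WT 1 to 5 against 91.7, 69.4, 92.6 and 78.0 CPM across OGT-deficient 1 to 4, again without overlap (log2 fold change 0.54, SE 0.097, adjusted p = 0.000353).

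Hnrnpab (chromosome 11, 51600100 to 51606847, minus strand) measured 188, 180.2, 201, 187 and 187 CPM across WT 1 to 5 against 283, 215, 241 and 231 CPM across OGT-deficient 1 to 4. WT values kept within a narrow band and all OGT-deficient values lay above it (log2 fold change 0.36, SE 0.088, adjusted p = 0.0031), and antisense genes overlap 29.1% of its exonic sequence, so the value is uncertain. Hnrnpll, a regulator of alternative exons first known from lymphocytes, measured 33.0, 34.4, 36.6, 35.1 and 37.5 CPM across WT 1 to 5 against 33.0, 24.9, 26.7 and 26.8 CPM across OGT-deficient 1 to 4. OGT-deficient 1 lay at the bottom of the WT range and the other OGT-deficient libraries below it (log2 fold change -0.34, SE 0.09, adjusted p = 0.00554). With upper-quartile factors Hnrnpll stood at -0.22 (adjusted p = 0.0668) and with library totals at 0.0048 (adjusted p = 0.971).

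Levels between genes were compared as CPM per kilobase of merged exons, a scale on which annotated introns that are retained in some transcripts count as exon. Hnrnpf measured 216, 223, 221, 221 and 221 CPM across WT 1 to 5 against 223, 192, 201 and 193 CPM across OGT-deficient 1 to 4. Per kilobase it was highest in WT, at 72.3 ± 0.802 in WT and 66.4 ± 4.68 in OGT-deficient liver (SD, n = 5 and 4 here and below), followed by Hnrnpab at 67.8 ± 2.79 in WT and 87.2 ± 10.5 in OGT-deficient liver and Srsf5 at 59.5 ± 6.59 in WT and 43.4 ± 5.95 in OGT-deficient liver. In OGT-deficient liver Hnrnpab stood above Hnrnpf, and Srsf5 lay at the level of Hnrnpa2b1, which was at 40.1 ± 3.16 in WT and 43.5 ± 7.16 in OGT-deficient liver. The WT values of Hnrnpa0, Hnrnpk, Snrpb and Hnrnpa2b1 (48.2, 41.6, 40.7 and 40.1) differed from each other by less than the SD of Hnrnpa0, 8.55. Hnrnpa1, the gene of a protein that is abundant in most nuclei, was counted at only 1.68 ± 0.246 CPM in WT (SD, n = 5) against 1.42 ± 0.239 CPM in OGT-deficient liver (SD, n = 4), and 46.4% of its stretches occur in 19 other genes, so its level is uncertain. Hnrnpf shares 51.9% and Hnrnpk 34.5%.

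In all, 8 of the 36 calls were lost when a single library was left out. Besides Tra2b, given above, these were small differences. Among those that fell, Hnrnpr had a log2 fold change of -0.24 (adjusted p = 0.0539 to 0.0674 without WT 4, WT 5, OGT-deficient 2, OGT-deficient 3 or OGT-deficient 4). The B complex gene Prpf38a had -0.32 (adjusted p = 0.0574 to 0.0799 without WT 2, WT 5, OGT-deficient 3 or OGT-deficient 4). The Sm genes Snrpb and Snrpd2 had -0.24 (adjusted p = 0.0516 to 0.0626 without WT 2 or OGT-deficient 2) and -0.22 (adjusted p = 0.0654 to 0.0983 without WT 2, WT 3, WT 5, OGT-deficient 2, OGT-deficient 3 or OGT-deficient 4). U2af1l4, a second small U2AF subunit, had -0.31 (adjusted p = 0.0531 to 0.0715 without WT 2, OGT-deficient 1 or OGT-deficient 2). Among those that rose, the SF3B gene Sf3b3 had 0.21 (adjusted p = 0.0547 to 0.0669 without WT 4, WT 5, OGT-deficient 2, OGT-deficient 3 or OGT-deficient 4) and the Sm gene Snrpg 0.32 (adjusted p = 0.0669 without OGT-deficient 1). The 5 of these 7 genes that fell had log2 fold changes of -0.20 to -0.10 with upper-quartile factors and of 0.023 to 0.12 with library totals, and none of the 5 was called under either. Snrpd2 and Snrpg share 11.7% and 18.6% of their stretches with other genes, so both values are uncertain.

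Related genes were also compared within each library, as the log2 ratio of their counts, which no scaling between libraries can alter. The 16 pairs were chosen with earlier results of these data known. The p-values of pairs given below therefore describe these pairs and are no independent support for a change in ratio. For 5 pairs the OGT-deficient ratios lay wholly outside the WT ratios, each with a two-sided exact permutation p of 0.0159, the smallest possible, and an adjusted p of 0.0508 over the 16 pairs, so none passed at 0.05. This p is 2 times the smaller one-sided p, as scipy computes it. The test had first been run in another two-sided form, the share of all divisions of the 9 libraries with an absolute difference of means at least as large. In that form the smallest possible p was 0.00794 and 6 of the 16 pairs passed, among them Luc7l2/Luc7l, Hnrnpa3/Hnrnpa2b1 and Hnrnph1/Hnrnph2 (adjusted exact permutation p = 0.0317), and Luc7l3/Luc7l and U2af1l4/U2af1 (adjusted exact permutation p = 0.0423). The form reported first here was chosen after those results had been seen, so whether any pair passes depends on a choice made with the outcome known. Of these 5 pairs 4 are described. The log2 ratio of Luc7l2 to Luc7l was 1.57 ± 0.055 in WT against 0.96 ± 0.16 in OGT-deficient liver. Luc7l3 to Luc7l gave 0.30 ± 0.084 in WT against -0.01 ± 0.11 in OGT-deficient liver. In the other direction, Hnrnph1 to Hnrnph2 gave 0.15 ± 0.07 in WT against 0.73 ± 0.21 in OGT-deficient liver, and Hnrnpa3 to Hnrnpa2b1 -2.43 ± 0.11 in WT against -1.86 ± 0.33 in OGT-deficient liver. Of the stretches of Hnrnph2 18.2% and of U2af1 59.4% occur in other genes, so the ratios with these genes are uncertain, as are those with Hnrnpa3 and Luc7l2.

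For the other 11 pairs the groups overlapped. The log2 ratio of Tra2a to Tra2b was -1.35 ± 0.2 in WT against -0.93 ± 0.18 in OGT-deficient liver (p = 0.0317 in the same exact permutation test, adjusted 0.0635), and that of Clk4 to Clk1 was -0.75 ± 0.12 in WT against -0.99 ± 0.14 in OGT-deficient liver (p = 0.0635 in that exact permutation test, adjusted 0.102). The SR pairs Srsf9 to Srsf1, Srsf7 to Srsf3 and Srsf4 to Srsf6 had adjusted exact permutation p of 0.212, 0.162 and 0.254, with differences of -0.14, -0.21 and 0.20 on the log2 scale. Ratios with Tra2b, Srsf3 and Srsf4 are uncertain because of the shared or overlapping sequence given above.

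**Figure D4:**
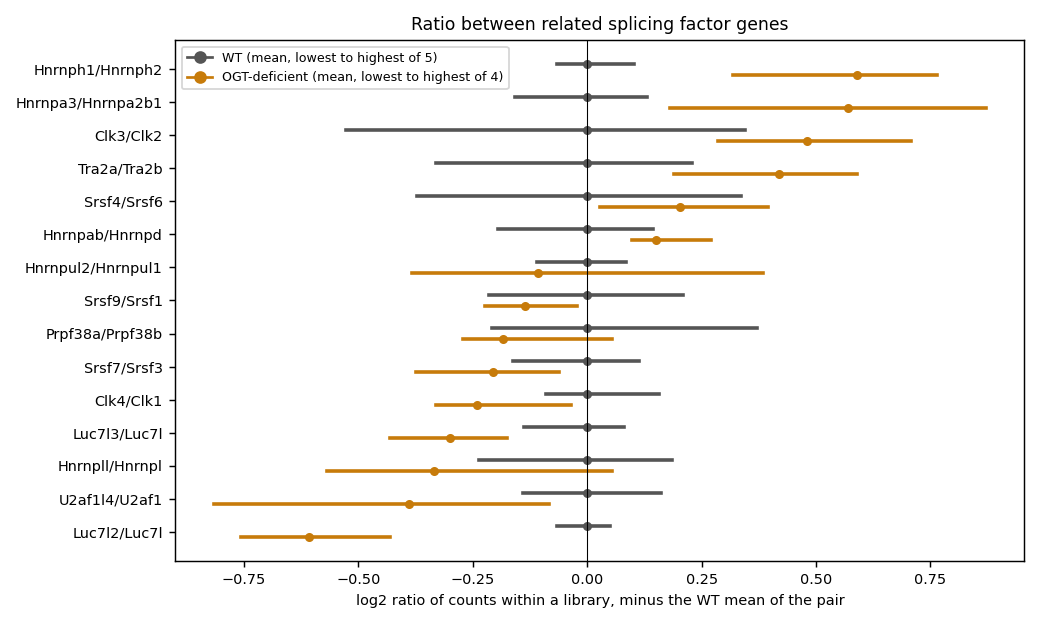
Log2 ratio of the counts of 15 of the 16 pairs of related splicing factor genes within each library, centred on the WT mean of the pair, with a point for the group mean and a line from the lowest to the highest library. For Luc7l2/Luc7l and Luc7l3/Luc7l the OGT-deficient line lies wholly to the left of the WT line, and for Hnrnph1/Hnrnph2 and Hnrnpa3/Hnrnpa2b1 wholly to the right.

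The annotation lists transcripts with an early stop that are targets of nonsense-mediated decay for 44 of the 78 genes, all of them tested. Of these 44, 5 rose and 14 fell (median log2 fold change -0.11). Of the 31 tested genes with no such transcript listed, 12 rose (38.7%) and 5 fell (16.1%), with a median of 0.12. The 5 rises among the former were Prpf31, Snrpa1, Snrpe, Tra2a and Tra2b, and Rbm39, Luc7l2, Prpf40b and Clk4 were among the falls. Snrpc, Snrpd3, Prpf19 and Sf3b5 have no such transcript listed. With upper-quartile factors the former held 9 rises and 8 falls and the latter 17 and 2, and with library totals 19 and 3 against 23 and 1. A split by listed retained-intron transcripts was also made, with TMM. It gave 13 rises (21.7%) and 17 falls (28.3%) among 60 tested genes with such a transcript. Among the 15 without, it gave 4 (26.7%) and 2 (13.3%). Whether either split differs beyond chance was not tested, and counts per gene do not separate transcripts.

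Promoter sequences are shown for the 3 largest rises and the 3 largest falls among called genes with a RefSeq promoter window, since these genes mark the ends of the range of change. Of 78 genes 67 had a window in RefSeq (build GRCm38.p6), which spans 250 bases before to 50 after the start of transcription. Each is printed 5′ to 3′ on the strand of its gene, and capitals mark matches on either strand to 7 motifs. These are the CCAAT box, the GC box with the letters GGGCGG, the core bound by ETS factors with CCGGAAG, the cAMP response element with TGACGTCA, the E-box with CACGTG, the NRF1 core, and the TATA box with TATAAA. Of the genes that rose, Snrpc lies at chr17:27839837-27840136, Snrpa1 at chr7:66060086-66060385 and Snrpd3 at chr10:75517792-75518091, all on the plus strand. Of those that fell, Prpf40b lies at chr15:99294991-99295290 and Luc7l2 at chr6:38555473-38555772 on the plus strand, and Rbm39 at chr2:156180189-156180488 on the minus strand.
Snrpc: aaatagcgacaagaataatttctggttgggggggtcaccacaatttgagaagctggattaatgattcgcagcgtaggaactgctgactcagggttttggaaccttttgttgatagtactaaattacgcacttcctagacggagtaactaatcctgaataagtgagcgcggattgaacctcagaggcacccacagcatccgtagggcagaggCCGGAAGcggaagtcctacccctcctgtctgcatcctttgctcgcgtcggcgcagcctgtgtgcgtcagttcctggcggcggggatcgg
Snrpa1: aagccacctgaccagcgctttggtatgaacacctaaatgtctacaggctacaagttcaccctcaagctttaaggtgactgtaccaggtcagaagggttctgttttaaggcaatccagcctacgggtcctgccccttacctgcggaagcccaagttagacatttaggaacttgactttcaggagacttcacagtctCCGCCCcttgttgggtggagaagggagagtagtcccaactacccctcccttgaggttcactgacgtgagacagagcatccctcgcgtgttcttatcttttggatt
Snrpd3: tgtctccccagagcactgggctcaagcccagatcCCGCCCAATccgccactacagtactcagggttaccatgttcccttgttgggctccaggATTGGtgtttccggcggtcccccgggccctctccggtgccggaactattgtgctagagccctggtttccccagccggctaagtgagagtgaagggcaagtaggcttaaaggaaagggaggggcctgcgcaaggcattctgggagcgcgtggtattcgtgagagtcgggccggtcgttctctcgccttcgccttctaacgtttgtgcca
Prpf40b: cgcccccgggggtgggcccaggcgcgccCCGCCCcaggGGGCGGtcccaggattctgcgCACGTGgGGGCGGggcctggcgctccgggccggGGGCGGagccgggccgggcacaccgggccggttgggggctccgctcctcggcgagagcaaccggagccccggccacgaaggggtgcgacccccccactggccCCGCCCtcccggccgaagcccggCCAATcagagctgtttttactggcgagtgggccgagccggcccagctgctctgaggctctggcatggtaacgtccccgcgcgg
Luc7l2: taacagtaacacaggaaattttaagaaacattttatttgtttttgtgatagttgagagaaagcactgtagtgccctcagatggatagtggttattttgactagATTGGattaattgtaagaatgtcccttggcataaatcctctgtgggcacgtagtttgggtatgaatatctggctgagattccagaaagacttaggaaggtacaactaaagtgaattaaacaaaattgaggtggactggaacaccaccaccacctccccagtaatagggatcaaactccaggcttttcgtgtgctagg
Rbm39: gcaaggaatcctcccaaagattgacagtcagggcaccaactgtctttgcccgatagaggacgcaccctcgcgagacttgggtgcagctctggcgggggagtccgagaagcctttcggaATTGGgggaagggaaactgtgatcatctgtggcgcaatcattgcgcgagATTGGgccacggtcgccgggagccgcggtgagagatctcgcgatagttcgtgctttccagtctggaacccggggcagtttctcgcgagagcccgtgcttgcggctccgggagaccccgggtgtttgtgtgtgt

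The RefSeq start matches the GENCODE gene start for Rbm39 and lies inside the GENCODE gene by 154 bases for Prpf40b, 491 for Snrpd3, 1333 for Snrpa1, 1937 for Snrpc and 4389 for Luc7l2, so these windows need not cover the start used in liver. None of the 6 windows holds TATAAA. With that limit, base composition varied, with G and C making up 39.7% of the window of Luc7l2 and 78.3% of that of Prpf40b. The Prpf40b window holds GGGCGG 5 times, that of Snrpc holds CCGGAAG once, and those of Snrpd3 and Rbm39 hold CCAAT 2 times each. The 67 windows hold a single window per gene, the RefSeq window nearest its GENCODE start, while the 32851 windows used for comparison were not filtered in this way. The sets are therefore unlike, and the differences between the following shares were not tested. Over the 67 windows of splicing factor genes CCGGAAG was found in 20 (29.9%), against 8.86% of all 32851 windows, and GGGCGG in 45 (67.2%), against 35.7%. CCAAT was found in 32 (47.8% against 37.4%), TATAAA in 6 (8.96% against 13.6%), CACGTG in 9 (13.4% against 7.15%), TGACGTCA in 4 (5.97% against 1.79%) and the NRF1 core in 0 (against 0.971%). CCGGAAG was present in 7 of the 15 windows of genes that rose and in 4 of the 16 of genes that fell. These matches describe letters and not binding.

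Other genes of splicing were taken from lists for comparison, and 31.6% of all tested genes rose and 29.4% fell. Counts and medians over these lists are given with TMM alone, and their split may depend on the scaling as that of the splicing factor genes did. Of 49 tested genes of the core spliceosome outside the symbol rule, 22 rose and 5 fell (median log2 fold change 0.21). Dhx38 encodes the helicase that remodels the spliceosome for the second catalytic step, and it went from 35.3 ± 4.35 to 109 ± 4.31 CPM (log2 fold change 1.63, adjusted p = 4.66e-08), without overlap between the groups. Lsm2, of the ring that binds U6, rose by 0.72 and the helicase gene Dhx8, which acts in release of the finished mRNA, by 0.67 on the log2 scale. Cwc15 fell by 0.71, Lsm6 fell by 0.51 and Sf1, which encodes the first protein to bind the branch point, fell by 0.37. Of 10 genes of the minor spliceosome, which removes a rare class of introns, Snrnp25 rose by 1.09, and Scnm1, Snrnp48 and Rnpc3 fell by 0.60, 0.70 and 0.53. For Rnpc3 a gene on the same strand covers 17.0% of the exonic bases, so its value is uncertain.

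Of 57 tested regulators of alternative splicing outside the symbol rule, 6 rose and 16 fell, with a median of -0.10. The muscleblind gene Mbnl3 went from 0.755 ± 0.237 to 5.11 ± 0.947 CPM (log2 fold change 2.73, adjusted p = 8.84e-07), and Rbm25 and Fubp1 rose by 0.65 and 0.51. Rsrp1, a gene of an arginine and serine rich protein, went from 191 ± 51.7 to 75.6 ± 16.1 CPM (log2 fold change -1.34), Rbm47 fell by 0.98 and Scaf1 fell by 0.78. Of 6 tested genes for the phosphorylation and import of SR proteins, the kinase genes Srpk1 and Srpk2 rose by 0.47 and 0.46, and Dyrk1b fell by 0.88 on the log2 scale.

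Among 17 genes of the exon junction complex, the cap-binding complex and nonsense-mediated decay, 7 rose and 4 fell, with a median of 0.19. Eif4a3, which anchors the exon junction complex, rose by 0.51 (with 24.4% of its stretches in other genes), and the cap-binding genes Ncbp2 and Ncbp1 rose by 0.52 and 0.38. Smg9, Upf3b and Upf3a, which act in nonsense-mediated decay, fell by 0.73, 0.73 and 0.33. With library totals alone Lsm6, Sf1, Scnm1 and Rnpc3 had smaller falls of 0.17, 0.03, 0.26 and 0.20 that were not called, and Upf3a stood at 0.012. Upf3a was not called with upper-quartile factors either (-0.21, adjusted p = 0.0608).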

How the data were processed

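Whole-liver RNA of 9 mice (5 WT, 4 OGT-deficient) was analysed. The submitters' processing notes name HTSeq 0.9.1, TopHat2 2.1.0 and the build mm10 (GRCm38). The authors deposited unnormalized read counts for 24421 gene symbols and 5 summary lines per library, which name no gene and entered neither library sizes nor tests. Of uniquely aligned reads, 8.95 to 10.7% lay outside annotated features and 1.78 to 2.17% were ambiguous. No source used here gives the annotation release or strand setting, so antisense reads cannot be told apart. Within-group chi-square per degree of freedom over 16 library pairs was 23.9 to 135.0, so no library was counted as a duplicate. Each library was taken as 1 mouse, because the design gives as many mice as there are libraries.

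Counts were tested in R 4.3.3 with edgeR 4.0.16 (filterByExpr, TMM, glmQLFit and glmQLFTest on group, Benjamini-Hochberg over 14104 genes, threshold 0.05). Positions, exon lengths and transcripts are from GENCODE mouse release 21 (GRCm38), to which all 78 symbols matched. Genes sharing over 10% of 50-base stretches with a gene elsewhere, or over 10% of exonic bases with an overlapping gene, are given as uncertain (27 of 78). Permutation tests used scipy 1.17.1. On data simulated for this comparison (13518 genes), the fit recovered 32.8% of genes set to differ by 0.5 on the log2 scale, 94% at 1 and 100% at 2. Only 67, 67 and 66 genes were set to differ at these sizes, whereas 61.1% of genes were called in the data. The adjustment over genes is stricter with so few changes, so these shares do not give the recovery in the data.

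The members, lists and pairs were chosen with earlier results of these data known. Values in each library are given for the CLK, LUC7L and TRA2 genes and Rbm39, the largest called rise and fall with a mean CPM of at least 5 in each other family, the 10 members with the smallest p and those highest per length, with some given as mean and SD. From each list of other splicing genes up to 3 rises and 3 falls with the smallest p are named. Chosen after values were seen were other members named, the 16 pairs, the library-totals scaling, the promoters and motifs shown, and the form of the two-sided permutation test, which was run both ways. A tested member and the pair that holds it are counted in the totals but not reported here. Transcripts stood in for a genome in the search for shared sequence.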

Additional observations from a re-analysis of the deposited data

Results flagged for a closer look

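Library values of 40 splicing factor genes were checked in both groups, 80 groups in all, for a single library whose distance to its nearest neighbour took up most of the group's range. Chance gives such a library in about 1 of 20 groups, and 5 were found. Prpf31 stood at 21.25 CPM in OGT-deficient 2, where the other OGT-deficient libraries held 16.21 to 16.67 CPM. Sf3a3 stood at 13.99 CPM in WT 2 against 16.21 to 16.51 CPM in the other WT libraries, and at 26.11 CPM in OGT-deficient 1 against 21.55 to 21.89 CPM in the other OGT-deficient libraries. Srsf5 stood at 283.6 CPM in WT 4 against 218.2 to 228.7 CPM. Tra2a stood at 8.78 CPM in WT 1 against 12.49 to 12.96 CPM. The calls of Prpf31, Sf3a3, Srsf5 and Tra2a were kept without each of these libraries.

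Outside the gene counts, the share of uniquely aligned reads that fell in no annotated feature was 9.96% in the lowest OGT-deficient library and 9.72% in the highest WT library, so that the groups did not overlap (two-sided exact permutation p = 0.0159, adjusted 0.0265).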

How the results depend on the processing

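With upper-quartile factors 26 splicing factors were higher and 10 lower, and the medians of splicing factors and of all genes were 0.078 and 0.14. With library totals alone, added after the data were seen, 42 were higher and 4 lower, the medians were 0.30 and 0.36, and 7372 of all genes were higher and 2014 lower. Under library totals the sign turned for 32 of 75 members. Among the members and list genes followed through every setting these were Clk1 (0.074), Hnrnpll (0.0048), Hnrnpr (0.11), Luc7l (0.18), Prpf38a (0.023), Sf3b2 (0.12), Snrpb (0.11), Snrpd2 (0.12), Srsf11 (0.060), Srsf7 (0.067), U2af1l4 (0.030) and Upf3a (0.012). Leaving out the TMM factors moved the median of all genes in the same direction, from 0.02 to 0.36. Why these factors differ between the groups was not tested. Without the filter on low counts the median of all genes was 0.10, over more genes, and 16 splicing factors rose and 19 fell, Sf3b3 being lost (adjusted p = 0.0508). Leaving out the 20 tested members that share over 10% of their stretches, also added later, left 10 rises and 15 falls among 55. Without each library in turn 15 to 17 rose and 15 to 23 fell. DESeq2 gave 17 and 19. With the absolute form of the permutation test 6 pairs passed and with scipy's form 0.

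The 4 same-number correlations between the groups were -0.103 to 0.104, and those of unlike numbers ran from -0.175 to 0.135. These values gave no sign of pairing by replicate number, but so few cannot exclude it. With the replicate number as a block 7869 of all genes were called against 8614, and 14 splicing factors rose and 14 fell. For the 3 members that held too few counts no test could be made.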

Other observations

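Of the 78 genes 3 held too few counts to be tested. Srsf12 had 0 to 2 counts in the WT libraries and 2, 8, 11 and 5 counts in OGT-deficient 1 to 4. Snrpf, an Sm ring gene, had 1 to 4 counts in every library, and Snrpn had 0 counts in all 9. Antisense genes overlap 85.4% of the exonic sequence of Snrpf, and 21.3% of its stretches occur in other genes, so its count cannot be read as its level.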
